A study of Homo sapiens with 8 samples.

Results

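YAP1, TAZ (gene symbol WWTR1), the transcription factor TEAD1, its cofactor VGLL4, the LATS inhibitor AJUBA and the YAP/TAZ target genes CCN1 and CCN2 were followed through a map of RNA bound by the protein QKI7. The 7 genes were chosen by name, and all their peaks were taken from the 4 deposited peak lists: 69 of 42083 peaks, in 7 of the 6515 genes listed. CCN1 and CCN2 are listed under their older symbols CYR61 and CTGF. Peaks of a gene that shared at least 1 base between lists were joined into a site, which gave 19 sites for the 7 genes among 14516 sites in all.

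The study asked whether loss of METTL1 alters what QKI7 binds. The 8 samples came from HepG2, a human liver cancer line, carrying Cas9. Cells had either a guide against METTL1 (sgMETTL1) or a control guide (sgNS), with an input and a Flag immunoprecipitate (IP) for each of 2 replicates per guide. All samples, with either guide, also carried 3xFlag-QKI7 delivered by a lentiviral vector and had been sorted for GFP, so the binding measured is that of the added, tagged protein. The labels do not say whether replicates were separate cultures, so p-values below reflect variation among these samples alone, and that variation may be technical. Each list compares 1 IP with its input: the sgMETTL1 lists held 10095 and 9388 peaks, and the sgNS lists 11562 and 11038. A peak's fold is the authors' enrichment of IP over input, with a median over all peaks of 4.47 and 4.44 in the sgMETTL1 lists and 4.58 and 4.33 in the sgNS lists. Read totals are not given, so the depth behind each value is unknown. METTL1 and its partner WDR4 had a peak in 0 of the 4 lists, so the knockout could not be checked in these files. Of 9 hepatocyte and HepG2 markers, APOB, SERPINA1, HNF4A and FGB had peaks in all 4 lists, ALB in 1, and AFP, APOA1, TTR and TF in none. Since a peak is enrichment over input and not a level of RNA, a gene without one may still be expressed.

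YAP and TAZ are paralogous coactivators that cannot bind DNA themselves and reach their target genes through TEAD transcription factors. The Hippo kinases MST1/2 act through the kinases LATS1/2, which phosphorylate YAP and TAZ. This holds YAP and TAZ in the cytoplasm with 14-3-3 proteins or marks them for degradation. VGLL4 competes with them for TEAD, AJUBA restrains LATS, and CCN1 and CCN2 are secreted matrix proteins used as readouts of pathway activity. In mouse liver the pathway limits organ size. QKI7 is an isoform of Quaking, a STAR-family protein that binds ACUAA elements in RNA, and METTL1 is the methyltransferase that, with WDR4, places m7G on tRNA and on other RNAs.

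All 7 genes had a peak in all 4 lists, against 63.7% of the genes listed in any. Of their 19 sites, 13 were in all 4 lists (68.4%, against 41.3% of all sites), 2 were in 3 lists, 1 was in 2 and 3 were in 1. The 7 genes were chosen with earlier results of these data known, so these shares describe the chosen genes only. All 69 peaks were single blocks, as were 90.5 to 90.9% of all peaks in each list. Of the 69, 57 had their centre within 4000 bases of the annotated 3' end of the gene. The other 12 belonged to TEAD1, and the most distant lay 6836 bases from the end. By list, 15 of 17 and 13 of 17 peaks lay within 4000 bases with sgMETTL1, and 15 of 18 and 14 of 17 with sgNS. Most peaks of the lists as a whole lay there too, at 74.9 to 75.6%. Which part of a transcript each peak covers was not analysed here. The folds were mostly modest: the median over the peaks of the 7 genes was 2.52 and 2.48 in the sgMETTL1 lists and 2.20 and 2.52 in the sgNS lists.

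**Figure D1:**
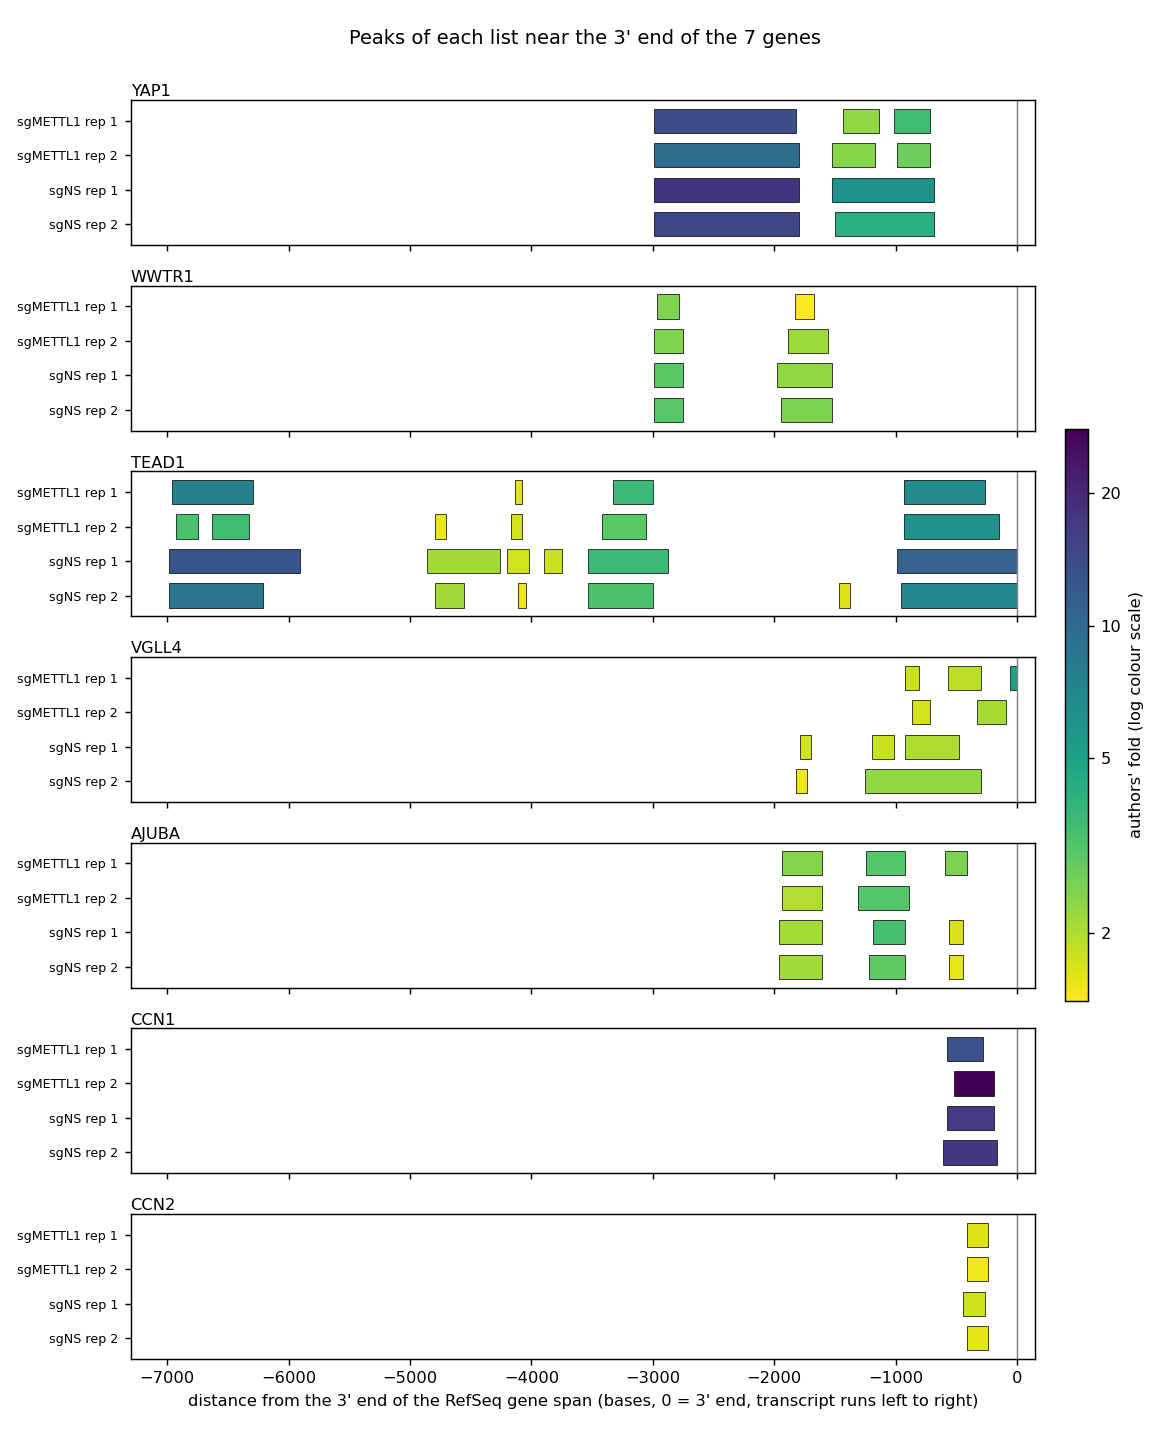
Peaks of the 7 genes in each list (rows, sgMETTL1 above sgNS), drawn by distance in bases from the annotated 3' end of the gene (0, right) and coloured by the authors' fold. The peaks of TEAD1 reach the farthest upstream, with the most distant centre at 6836 bases.

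YAP1, on the plus strand of chromosome 11 (GRCh38, 102110447 to 102233424), carried the site with the strongest listed p of the set. Its first site, at 102230431 to 102231628, had folds of 14.1 and 9.84 in the sgMETTL1 lists, against 18.0 and 14.8 in the sgNS lists. Both sgMETTL1 folds were below both sgNS folds, as at 38.7% of all sites found in the 4 lists. Set against the other peaks of each list, where 0% is the strongest, the fold stood at 16.7 and 23.8% with sgMETTL1 and at 13.9 and 16.0% with sgNS, so the sgMETTL1 values were again the weaker. Ranked only among the 6001 sites found in all 4 lists, the groups overlapped. The listed p was far stronger than the fold: its −log10 was 244 and 302 with sgMETTL1 and 769 and 672 with sgNS, within the leading 3.63% of peaks in every list. The site spanned nearly the same bases throughout, 1168 and 1198 with sgMETTL1 and 1198 in both sgNS lists.

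The second YAP1 site, at 102231897 to 102232735, differed in shape. Its strongest folds were 3.50 and 2.74 with sgMETTL1, against 6.20 and 4.19 with sgNS, without overlap, beside 38.7% of all sites that were lower in this way. In both sgMETTL1 lists the site was called as 2 peaks with an uncalled gap of 119 and 179 bases, whereas each sgNS list held 1 peak, of 839 and 809 bases. Of all 6001 sites found in the 4 lists, 3.47% were split in both sgMETTL1 lists and in neither sgNS list. Among the 13 such sites of the set, YAP1 site 2 was the single one.

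WWTR1, which encodes TAZ (minus strand of chromosome 3, 149517235 to 149724788), stood far below its paralog. Its first site, at 149519989 to 149520228, had folds of 2.51 and 2.48 with sgMETTL1, against 3.06 and 3.10 with sgNS, both sgMETTL1 values being lower. Its second site, at 149518762 to 149519211, had 1.42 and 2.20 with sgMETTL1, against 2.29 and 2.52 with sgNS, again without overlap. Folds were lower in this way at 38.7% of all sites found in the 4 lists. Ranked among those sites, the groups overlapped at site 2 of WWTR1 but not at site 1. Ranked by the strongest fold of a gene, YAP1 stood at 28.1 and 36.3% of the genes in the sgMETTL1 lists and at 23.8 and 27.8% in the sgNS lists. WWTR1 stood at 89.1 and 87.8% with sgMETTL1 and at 82.7 and 81.0% with sgNS. The order of the paralogs was thus the same in all 4 lists, and the gap between them exceeded the spread between lists.

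TEAD1, the DNA-binding partner (plus strand of chromosome 11, 12674421 to 12944737), had the most fragmented pattern. It held 7 sites, against a median of 2 per gene, and 3.10% of genes held 7 or more. Site 1, at 12937751 to 12938830, had folds of 7.54 and 3.51 with sgMETTL1, against 12.6 and 8.69 with sgNS. Site 7, at 12943748 to 12944737 and ending at the annotated end of the gene, had 6.70 and 6.14 with sgMETTL1, against 11.1 and 7.17 with sgNS. At both of these stronger sites the groups did not overlap and the sgMETTL1 lists were lower, as at 38.7% of all sites found in the 4 lists. Ranked among those sites, the groups overlapped at site 7 but not at site 1. In sgMETTL1 replicate 2, site 1 was called as 2 peaks with 119 bases between them.

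The TEAD1 sites between these 2 were weaker. Site 5, at 12941199 to 12941859, had folds of 3.69 and 3.00 with sgMETTL1 and 3.68 and 3.26 with sgNS, which overlap. Site 3, at 12940539 to 12940719, had 1.63 and 1.69 with sgMETTL1 and 1.71 and 1.47 with sgNS, which overlap too. The remaining sites were missing from some lists. Site 2, at 12939880 to 12940479, was not listed in sgMETTL1 replicate 1, had a fold of 1.53 in sgMETTL1 replicate 2, and 2.11 in both sgNS lists. Site 4, at 12940839 to 12940989, was listed in sgNS replicate 1 alone, with a fold of 1.77, and site 6, at 12943268 to 12943358, in sgNS replicate 2 alone, with 1.63. No sgMETTL1 list held either of the last 2 sites, but neither was found in both sgNS lists.

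**Figure D2:**
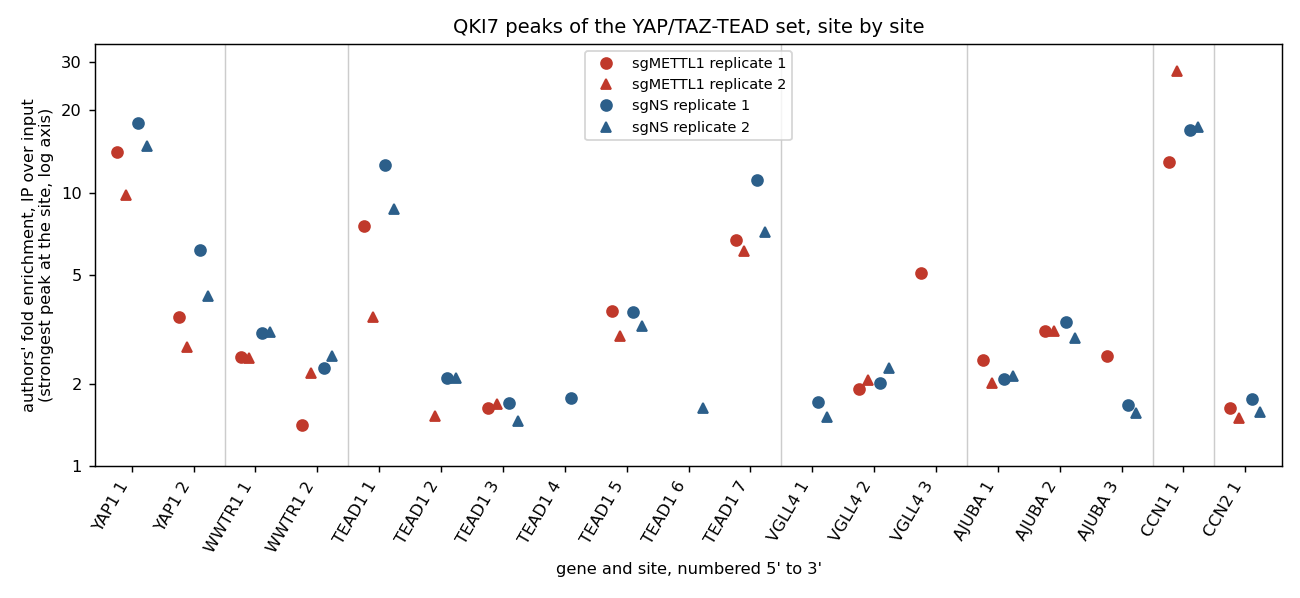
The authors' fold of IP over input (log axis) at each of the 19 sites, with 1 point per list and the sgMETTL1 lists left of the sgNS lists; where a list holds several peaks at a site, the strongest is drawn. YAP1 site 1 and CCN1 hold the highest folds, up to 18.0 and 27.8, and most other sites lie below 4.

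VGLL4, the TEAD cofactor that opposes YAP (minus strand of chromosome 3, 11556067 to 11721815), was the only gene of the set with a lost site, meaning a site that each sgNS list holds and no sgMETTL1 list does. Site 1, at 11557769 to 11557889, was not listed with sgMETTL1 and had folds of 1.72 and 1.51 with sgNS. That is 1 lost site of 19, beside 7.42% of all sites, and 0 gained beside 1.21%. Its folds stood at 93.1 and 96.8% of the peaks of the sgNS lists, where 100% is the weakest. With equal numbers of peaks taken from each list, 0 sites of the set were lost. With any 1 list left out 2 were, but its guide is then judged on 1 list, so the count cannot fall. Site 2, at 11556157 to 11557321, had 1.92 and 2.07 with sgMETTL1 and 2.02 and 2.29 with sgNS, which overlap. Site 3, at 11556067 to 11556127 and only 61 bases long, was listed in sgMETTL1 replicate 1 alone, with a fold of 5.08.

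The VGLL4 values cannot be assigned to VGLL4 with certainty. The autophagy gene ATG7 runs over the 3' end of VGLL4 on the other strand. Of the 10 VGLL4 peaks, 8 shared at least 49 bases with a peak listed for ATG7 in the same list, and the VGLL4 fold was 0.918 to 1.19 times the ATG7 fold. In sgMETTL1 replicate 2 both were 2.07, and in sgNS replicate 2 they were 2.29 for VGLL4 and 2.26 for ATG7. The 2 VGLL4 peaks with no such partner were those of site 1, the lost one. Such pairs are uncommon: 0.991 and 1.04% of peaks in the sgMETTL1 lists and 1.06 and 1.12% in the sgNS lists had an opposite-strand partner over at least 50% of both. Near-equal folds were usual in those pairs and not particular to VGLL4. The larger fold was a median of 1.02 and 1.04 times the smaller in the sgMETTL1 lists and 1.04 times in both sgNS lists. The libraries were stranded, per the labels, but whether the counting used the strand is not given in the sources used here, so reads of the 2 genes cannot be told apart.

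**Figure D3:**
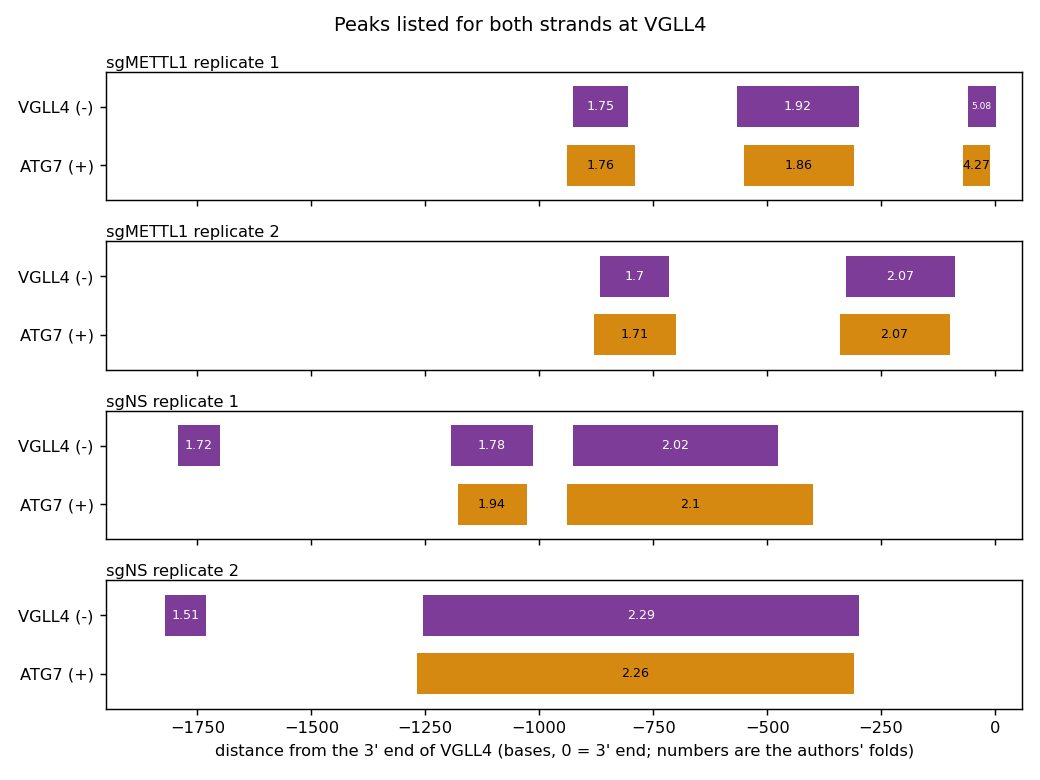
Peaks listed for VGLL4 (purple, minus strand) and ATG7 (orange, plus strand) in each list, by distance in bases from the 3' end of VGLL4, with the authors' fold written on each. Peaks of the 2 genes pair up with near-equal folds except at the leftmost VGLL4 site, listed with 1.72 and 1.51 in the sgNS lists.

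AJUBA, a LIM protein that inhibits LATS kinases (minus strand of chromosome 14, 22971177 to 22982551), had 3 sites of modest fold. Site 1, at 22972783 to 22973141, had folds of 2.45 and 2.01 with sgMETTL1 and 2.09 and 2.14 with sgNS. Site 2, at 22972068 to 22972485, had 3.12 and 3.13 with sgMETTL1 and 3.38 and 2.94 with sgNS. At both sites the groups overlap. Site 3, at 22971591 to 22971770, had 2.52 in sgMETTL1 replicate 1, was not listed in sgMETTL1 replicate 2, and had 1.68 and 1.56 with sgNS. Sites 1 and 2 of AJUBA joined a modest fold to a strong p. By fold, site 2 stood at 62.4 to 67.7% of the peaks of a list, and by p at 10.0 to 13.1%. Site 1 stood at 81.2 to 88.4% by fold and at 14.2 to 22.5% by p. The p of site 3 was not strong, at 46.0 to 66.4% in the lists that held it.

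CCN1 (plus strand of chromosome 1, 85580761 to 85583950), one of the target genes of YAP and TAZ, had 1 site, at 85583340 to 85583786. Its folds were 13 and 27.8 with sgMETTL1, against 17 and 17.4 with sgNS. The sgMETTL1 lists lay on either side of the sgNS lists, and the list with the highest fold had the weakest p: −log10 p was 44.9 and 28.8 with sgMETTL1 and 60.7 and 75.0 with sgNS. The other target, CCN2 (minus strand of chromosome 6, 131948176 to 131951372), also had 1 site, at 131948414 to 131948622, and it was 1 of the weakest of the set. Its folds were 1.64 and 1.5 with sgMETTL1 and 1.76 and 1.58 with sgNS, which overlap. By gene, CCN1 stood at 30.4 and 11.8% with sgMETTL1 and 25.2 and 23.1% with sgNS, whereas CCN2 stood at 97.9 and 98.9% with sgMETTL1 and 96.6 and 98.2% with sgNS. The 2 target genes therefore lay far apart in rank in every list. The annotation places an antisense gene, CCN2-AS1, over CCN2.

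The 13 sites found in all 4 lists allowed the guides to be compared. Whether a fold means the same in each list is not stated, so folds were ranked within each list. Only the 6001 sites found in all 4 lists were ranked, and each rank was turned into a normal score. On that score 0 is the middle of these sites and higher is stronger. The scores were fitted with limma over all 6001 such sites. At an FDR of 5%, 0 of the 13 sites passed, beside 0% of all sites in either direction. Without adjustment, p was under 0.05 for 324 sites higher and 303 sites lower with sgMETTL1 over the whole table. TEAD1 site 1 differed by −0.54 (95% interval −1.33 to 0.24, limma adjusted p = 0.56), sgMETTL1 minus sgNS, and WWTR1 site 2 by −0.54 (−1.70 to 0.63, adjusted p = 0.696). YAP1 site 2 differed by −0.42 (−1.01 to 0.17, adjusted p = 0.557) and YAP1 site 1 by −0.11 (−0.60 to 0.38, adjusted p = 0.874). TEAD1 site 3 differed by 0.42 (−0.15 to 1.00, adjusted p = 0.546). The intervals of these sites all span 0. Leaving out any 1 list moved TEAD1 site 1 between −0.91 and −0.18, YAP1 site 2 between −0.61 and −0.24, YAP1 site 1 between −0.22 and −0.008, and TEAD1 site 3 between 0.21 and 0.58. WWTR1 site 2 ranged from −1.19 to 0.085, the positive value being that without sgMETTL1 replicate 1. Over the 13 sites 6 differences were below 0, beside 51.9% of all sites, and 7 above. Their median was 0.07, beside −0.02 over all sites.

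The direction of these sites depended on the measure. On the deposited folds, both sgMETTL1 lists lay below both sgNS lists at 6 of the 13 sites, beside 38.7% of all sites, and above at 0, beside 9.9%. On the rank score they lay below at 3, YAP1 site 2, WWTR1 site 1 and TEAD1 site 1, beside 23.8% of all sites, and above at 3, TEAD1 site 3, AJUBA site 1 and AJUBA site 2, beside 20.2%. The listed −log10 p was lower in both sgMETTL1 lists at all 13 sites, and this was also so for 76.2% of all sites, the reverse holding for 0 of the 13 and for 3.45%. Over the 6001 sites shared by every list, the log2 fold had a median difference of −0.22. The typical fold at these shared sites was therefore lower with sgMETTL1. Over all peaks, the list medians of the fold overlapped between guides, at 4.47 and 4.44 with sgMETTL1 and 4.58 and 4.325 with sgNS. Relative to −0.22, the log2 differences of YAP1 site 2 (−0.72) and TEAD1 site 1 (−1.02) were lower still. So were those of YAP1 site 1 (−0.47), TEAD1 site 7 (−0.48), WWTR1 site 2 (−0.44) and WWTR1 site 1 (−0.30). The remaining sites of the 13 lay above −0.22, and none of the 13 passed the test on that scale.

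**Figure D4:**
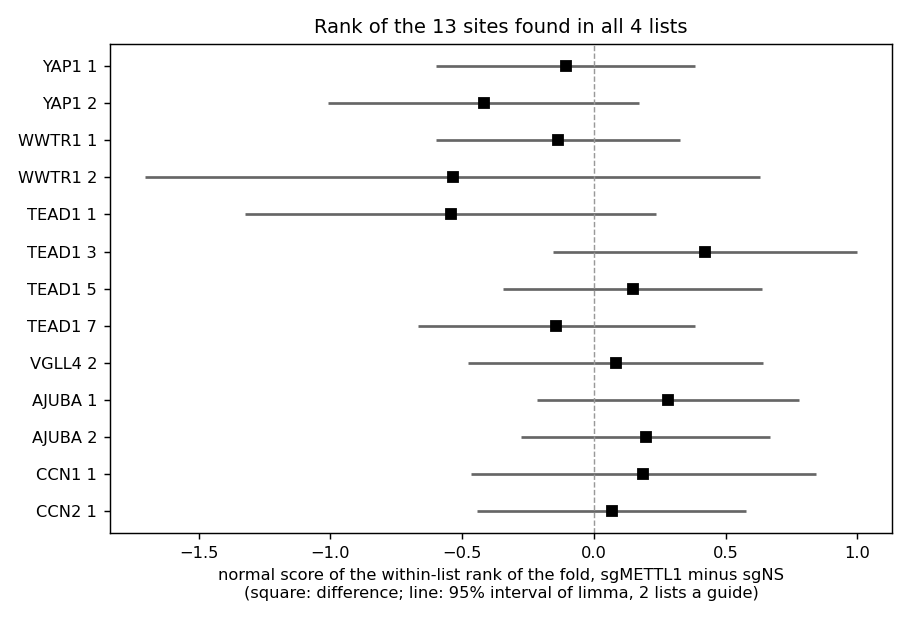
Difference in the within-list rank score of the fold, sgMETTL1 minus sgNS, for the 13 sites found in all 4 lists, with the 95% interval of limma (squares and lines, 2 lists per guide). Every interval spans 0, and the differences lie on both sides of it, with a median of 0.07.

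The length of each gene under peaks was also shorter with sgMETTL1 for most of the set. TEAD1 had 1713 and 1804 bases under peaks with sgMETTL1, against 3663 and 2673 with sgNS, a ratio of means of 0.555. VGLL4 had 451 and 389 bases with sgMETTL1, against 720 and 1047 with sgNS (ratio 0.475). WWTR1 had 332 and 570 bases with sgMETTL1, against 690 and 660 with sgNS (ratio 0.668). In these 3 genes, in YAP1 and in CCN1 both sgMETTL1 lists had fewer bases than both sgNS lists, 5 of 7 genes beside 58.8% of the genes of all 4 lists. YAP1 had 1768 and 1828 bases with sgMETTL1, against 2037 and 2007 with sgNS (ratio 0.889), and CCN1 298 and 329 with sgMETTL1, against 388 and 447 with sgNS (ratio 0.751). AJUBA overlapped between guides, with 837 and 747 bases with sgMETTL1 and 748 and 778 with sgNS, and CCN2 had 179 in every list. The median ratio over all genes was 0.801, and the sgMETTL1 lists hold fewer and narrower peaks as a whole, with a median width of 240 and 241 bases against 270 in both sgNS lists. The part of the number and width of all peaks in these shorter lengths was not tested.

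**Figure D5:**
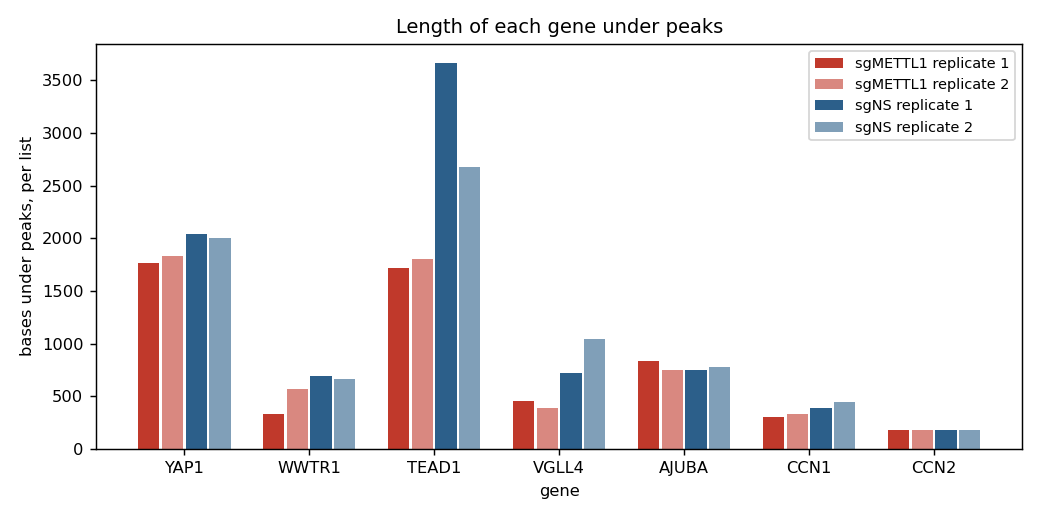
Bases under peaks for each of the 7 genes in each list, with the 2 sgMETTL1 lists (red) left of the 2 sgNS lists (blue). TEAD1 shows the widest gap, 1713 and 1804 bases with sgMETTL1 against 3663 and 2673 with sgNS, while CCN2 has 179 in every list.

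Taking the strongest fold of each gene gave the same outcome, with 0 of 4148 genes past the FDR of 5% in limma and 211 higher and 196 lower at an unadjusted p under 0.05. TEAD1 differed by −0.23, YAP1 by −0.12, WWTR1 by −0.12 and CCN2 by −0.05 on the rank score, and CCN1 by 0.19 and AJUBA by 0.21. These are 4 of 7 genes below 0, beside 52.2% of all genes. VGLL4 had the largest difference, 0.81 (SE 0.432, limma adjusted p = 0.595). Its gene value in sgMETTL1 replicate 1 is that of the 61-base peak of site 3, and without that list the difference was 0.20. Without sgMETTL1 replicate 2 it was 1.36. The genes nearest to YAP1 in rank, by the mean absolute difference in percentile over the 4 lists among 4141 genes, were CDR2 (1.24 percentile points) and UXS1 (1.48). Those nearest to WWTR1 were HADHA (0.993) and UBA1 (1.35), and those nearest to TEAD1 were MREG (1.41) and TSPAN3 (1.70).

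The rest of the pathway was read the same way, and 0 genes of any list passed the test. Over all 4148 genes the strongest fold was lower in both sgMETTL1 lists than in both sgNS lists for 37.7% and higher for 10.4%, so groups that do not overlap were common. Of 6 further TEAD and VGLL genes, 1 had a peak in both lists of either guide and 5 in none. That gene was VGLL3, a cofactor related to VGLL4, with folds of 21.3 and 25 with sgMETTL1 and 6.17 and 21.1 with sgNS. VGLL3 lay higher in both sgMETTL1 lists, beside 10.4% of all genes, though its nearest values were 21.3 and 21.1. It did not pass the test (difference 0.74, SE 0.43, limma adjusted p = 0.605). Of 25 further target genes of YAP and TAZ, 12 had a peak in all 4 lists and 9 had none. Of the 25, 1 was lost, beside 4.64% of all genes listed. The lost gene, named after its values were seen, was IGFBP3, an IGF-binding protein, not listed with sgMETTL1 and with folds of 5.79 and 16.9 with sgNS. Of the 12, 6 differences on the rank score were below 0 and 6 above, with a median of −0.0038 beside −0.02 over all genes. TGFB2, a secreted growth factor, had folds of 42.7 and 33.3 with sgMETTL1, against 23.1 and 23.2 with sgNS, without overlap (difference 0.51, SE 0.18, limma adjusted p = 0.48). CRIM1, a transmembrane protein that binds BMPs, had 15.1 and 20.3 with sgMETTL1 and 10.7 and 12.9 with sgNS. These 2 targets lay higher in both sgMETTL1 lists, as 10.4% of all genes did, and neither passed the test (limma adjusted p = 0.558 for CRIM1). F3, the tissue factor gene, overlapped, with 10.2 and 19.4 with sgMETTL1 and 14.6 and 12.0 with sgNS.

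Among the genes of the Hippo kinase core, which restrains YAP and TAZ, SAV1, STK4 and MOB1B ranked above YAP1 in every list and LATS2 below it. These core genes were named for having the best mean ranks of the core, so their high places partly follow from the choice. Of 7 genes of the Hippo kinase core, 5 had a peak in all 4 lists and 1 in none, with a median difference of 0.29. SAV1, the scaffold of the MST kinases, had folds of 53.3 and 40.3 with sgMETTL1, against 34.7 and 30.7 with sgNS. LATS2, which phosphorylates YAP and TAZ and is also a target gene, had 7.04 and 8.15 with sgMETTL1, against 12.4 and 9.51 with sgNS. The groups did not overlap at SAV1 (higher with sgMETTL1, beside 10.4% of all genes) or LATS2 (lower, beside 37.7%), and neither passed limma's test (adjusted p = 0.579 for SAV1 and 0.81 for LATS2). STK4, which encodes MST1, had 18.1 and 23.5 with sgMETTL1 and 27.4 and 22.3 with sgNS, and MOB1B, a LATS cofactor, had 21.3 and 23.6 with sgMETTL1 and 20.2 and 15.7 with sgNS. STK4 overlapped between guides. MOB1B lay higher in both sgMETTL1 lists, beside 10.4% of all genes, and did not pass the test (limma adjusted p = 0.654).

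Of 19 upstream and junction genes, 5 had a peak in all 4 lists, 10 had none and 1 was lost. The lost gene was RASSF6, a Ras-association protein of the MST pathway, not listed with sgMETTL1 and with folds of 20.8 and 27.5 with sgNS. TAOK1, a kinase upstream of MST, had 19.5 and 24.2 with sgMETTL1 and 27.1 and 23.6 with sgNS. WWC2, a relative of KIBRA, had 31.7 and 21.1 with sgMETTL1 and 17.3 and 19.8 with sgNS, and MAP4K4, a kinase acting on LATS, had 12.5 and 10.5 with sgMETTL1 and 14.5 and 15.5 with sgNS. WWC2 lay higher in both sgMETTL1 lists, beside 10.4% of all genes, and MAP4K4 lower, beside 37.7%, while TAOK1 overlapped. Neither WWC2 nor MAP4K4 passed limma's test (adjusted p = 0.589 and 0.909). Lost genes made up 4.64% of all genes listed and gained genes 1.52%, and 0 of the 7 genes of the set were either.

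The 14-3-3 proteins, which hold phosphorylated YAP and TAZ in the cytoplasm, had a peak in all 4 lists for 6 of 7 genes: 5 differences were below 0 and 1 above, and the median was −0.12. YWHAZ had folds of 14.5 and 13.9 with sgMETTL1 and 17 and 16.2 with sgNS, and YWHAB 9.17 and 8.56 with sgMETTL1 and 12.6 and 12.2 with sgNS. YWHAE had 4.85 and 3.39 with sgMETTL1 and 6.67 and 6.28 with sgNS, and YWHAG 3.59 and 4.17 with sgMETTL1 and 5.43 and 5.05 with sgNS. Folds of all 4 named genes were lower in both sgMETTL1 lists, beside 37.7% of all genes, and none of the 4 passed the test. On the rank score YWHAZ was the gene above 0, at 0.0079, and the other named genes were below 0. Of 6 genes of YAP and TAZ degradation, 3 had a peak in all 4 lists and 2 in none. CSNK1E, a casein kinase 1, had 42.4 and 32.6 with sgMETTL1 and 52.7 and 44.7 with sgNS, both sgMETTL1 values being lower, and did not pass the test (limma adjusted p = 0.692). FBXW11, an F-box protein of the ubiquitin ligase, had 61.0 and 31.6 with sgMETTL1 and 25.5 and 109 with sgNS, and SKP1, a ligase subunit, had 30.5 and 8.33 with sgMETTL1 and 17.3 and 16.1 with sgNS, both with overlap.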

How the data were processed

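RNA immunoprecipitation sequencing of Flag-QKI7 in HepG2 cells was followed through 4 peak lists, 1 for each IP set against its input, as the sample descriptions show. The build GRCh38 and the tool STAR are named, per the submitters' processing notes. The STAR version and the peak caller with its threshold and scaling were not given in the sources used here. Folds were used as the ratio that the authors deposited, and the p-value and the logarithms of p and FDR, handled as a score, are also as deposited. The p was listed as 0 for 270 and 288 peaks with sgMETTL1 and 621 and 565 with sgNS, so the logarithm was ranked. The largest listed FDR was about 5%.

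Peaks of 1 gene and strand sharing at least 1 base of exon blocks were joined into sites. The strongest fold of a site or gene in each list was ranked within the list, among the sites or genes found in all 4 lists, and turned into a normal score. The scores were fitted with limma 3.58.1 (R 4.3.3, 2 lists per guide, Benjamini-Hochberg over 6001 sites or 4148 genes, FDR of 5%, two-sided). The procedure was also run on simulated scores with the same noise at every site. How many shifted sites it recovered is not given here. An exact test of 2 lists against 2 cannot go below p = 0.33. Coordinates are 1-based. Gene spans and current names come from RefSeq GRCh38.p14: 6206 of 6520 names matched exactly, 296 through an older symbol, and 18 did not. Replicates share their numbers across guides, but the deviations of same-numbered lists correlated by −0.0011, so the numbers were not taken as pairs. Python 3.11.15, pandas 2.3.3, numpy 2.4.6, scipy 1.17.1 and matplotlib 3.10.9 were used. The 7 genes, the 9 gene lists and the tests were chosen with earlier results of these data known. All 7 genes were named; from each list up to 4 genes with the best mean rank, among those in both lists of a guide, were named, as were the 2 genes nearest in rank to YAP1, WWTR1 and TEAD1. The sequences under the peaks, the QKI motif in them and the part of the transcript were not analysed here. The alternatives tried are given in the closing section.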

Additional observations from a re-analysis of the deposited data

How the results depend on the processing

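The number of called sites or genes was 0 under every alternative run, including the replicate block, where the smallest adjusted p in limma was 0.481 for sites and for genes. The replicate block changed no other call, and the correlation of −0.0011 gives no sign that the numbers mark pairs. Over the alternatives that gave each a value, the smallest adjusted p of the 13 sites was 0.318 and of the 7 genes 0.474. The counts of lost and gained sites differed between settings, but the settings do not all count alike. By gene name the unit is a gene and not a site. With 1 list left out, its guide is judged on 1 list, so the counts can only stay or rise. All lost sites numbered 1077, against 706 with equal numbers of peaks per list and 302 by gene name, and 1653 to 2772 when any 1 list was left out. Gained sites numbered 175, against 566 at 50% reciprocal overlap, 94 at an FDR of at most 0.001 and 99 by gene name, and 312 to 1165 with any 1 list left out. Of the 7 genes' sites, 1 was lost in the main count, 2 at 50% reciprocal overlap (VGLL4 site 1 and YAP1 site 2), 0 with equal numbers and 0 by gene name. At an FDR of at most 0.001 it was again 1, but TEAD1 site 2 in place of VGLL4 site 1, and it was 2 with any 1 list left out. None was gained in the main count, 2 at 50% reciprocal overlap (the 2 pieces of YAP1 site 2), and 0 to 1 with any 1 list left out, the 1 being VGLL4 site 3 without sgMETTL1 replicate 2. In the fits by site, YAP1 site 2, WWTR1 site 2, TEAD1 site 1 and VGLL4 site 2 have no value at 50% overlap, nor WWTR1 site 2 and TEAD1 site 3 at an FDR of at most 0.001, as these are then not in all 4 lists. Read counts were not used, so what depth alone could show at the weak sites is unknown.

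Some score differences, sgMETTL1 minus sgNS, changed sign, none of them called; the causes were not tested. On log2 folds TEAD1 site 5 was −0.058, VGLL4 site 2 −0.11, AJUBA site 2 −0.013, CCN2 −0.088 and AJUBA by gene −0.013. On log2 folds minus the median of the list, an alternative chosen after seeing the data, CCN2 by gene was 0.19. Ranked by p, WWTR1 site 1 was 0.087, TEAD1 site 3 −0.35, VGLL4 site 2 −0.30, AJUBA site 2 −0.012 and CCN2 −0.28. With any 1 list left out, WWTR1 site 2 ranged from −1.19 to 0.085, TEAD1 site 7 from −0.31 to 0.019, VGLL4 site 2 from −0.10 to 0.22, CCN1 from −0.11 to 0.48 and CCN2 from −0.06 to 0.15. By gene, CCN1 ranged from −0.14 to 0.52 and CCN2 from −0.17 to 0.11, and VGLL4 was 0.20 without sgMETTL1 replicate 1.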
